A study of Rattus norvegicus with 2 samples.

Results

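The 50 genes described here build and police the mitotic chromosome. They are the centromere proteins with Cenp names, the SMC ATPases, the condensin subunits, the kinetochore and spindle checkpoint genes, the Aurora and Polo-like kinases with their partners, and the proliferation markers Mki67 and Top2a. They were picked from 15409 gene symbols by a rule on the symbol, chosen with earlier results of these data known. Their 64 listed transcripts, all of them protein coding, were summed per symbol. RNA came from the RBL-2H3 line, rat basophilic leukaemia cells that carry the high-affinity IgE receptor and serve as a mast cell model. One group was given normal saline. The other was given fine particulate matter (PM2.5) plus IgE and DNP-HSA, the antigen that crosslinks receptor-bound IgE, so the particles and the IgE stimulus were not separated. The title of the treated sample holds a number without a unit, and the treated values were assigned to that sample by this number alone. Each group holds 1 library, the labels give neither a time nor a unit for the dose, and whether the saline cells also saw IgE and antigen is not stated. The values below are therefore those of 2 single cultures: replicates to judge a difference by were lacking, and no test of the conditions was made.

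A dividing cell folds each replicated chromosome with condensin, holds sister chromatids together with cohesin, and pulls them apart through the kinetochore. The kinetochore is a layered protein assembly that grows on centromeric chromatin marked by the histone variant CENP-A and binds spindle microtubules with its outer layer. The spindle checkpoint reads unattached kinetochores and delays anaphase. Many of these genes are transcribed mainly in the G2 and M phases, so their RNA is commonly read as a sign of proliferation. In bulk RNA, fewer or more dividing cells and less or more RNA per cell cannot be told apart.

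The listed transcripts held 7279671 reads in the saline library and 3964955 in the treated one, so 1.84 times as many in the saline library. Reads outside the listed transcripts are not included. Pairs of values below give the saline library first. Levels are normalised read counts, in which 1 read is worth 0.867 in the saline and 1.65 in the treated library. All 50 genes had reads in both libraries and a normalised count of at least 1, the filter used. The median gene had 171 reads in the saline and 192.5 in the treated library, and 44 of the 50 had at least 100 reads over both. Of 8 mast cell markers, 7 were measured, with summed normalised counts of 23778 in the saline and 20342 in the treated library. Kit and Gata2 made up most of both sums, and the median log2 fold of the 7 was 0.44, with Cpa3 higher (1.74) and Hdc lower (-1.07). None of 4 lymphocyte markers was listed, and the 4 of 5 fibroblast markers listed summed to 226 and 306. Macrophage markers, 3 of 4 listed, summed to 1273 and 510, of which Csf1r made up 1215 and 472, while Cd68 had 19 reads in the saline and 0 in the treated library. The only epithelial marker listed of 4 gave 9.54 and 19.8. The part of these markers in the folds below was not tested.

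The genes lay higher in the treated library more often than not. Together they took 0.208% of the reads on listed transcripts in the saline library and 0.352% in the treated one. The log2 fold, treated relative to saline with 1 added to each normalised count, was above 0 for 39 of the 50 and below 0 for 11. With a difference counted from 2-fold upwards, that is a log2 fold of 1 or more in size, 19 of 50 genes (38%) were higher by that rule, against 12.1% of the 15097 symbols that passed the filter. None of the 50 was lower by it, against 19.1% of all symbols, a share that comes mostly from symbols of low level. The median log2 fold was 0.78 over the 50 genes, with quartiles of 0.025 and 1.41, and -0.070 over all symbols, with quartiles of -0.72 and 0.51. Exact 95% intervals, which cover counting error between these libraries and not the spread between cultures, lay wholly above 0 for 28 genes, wholly below 0 for 5 and across 0 for 17.

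**Figure D1:**
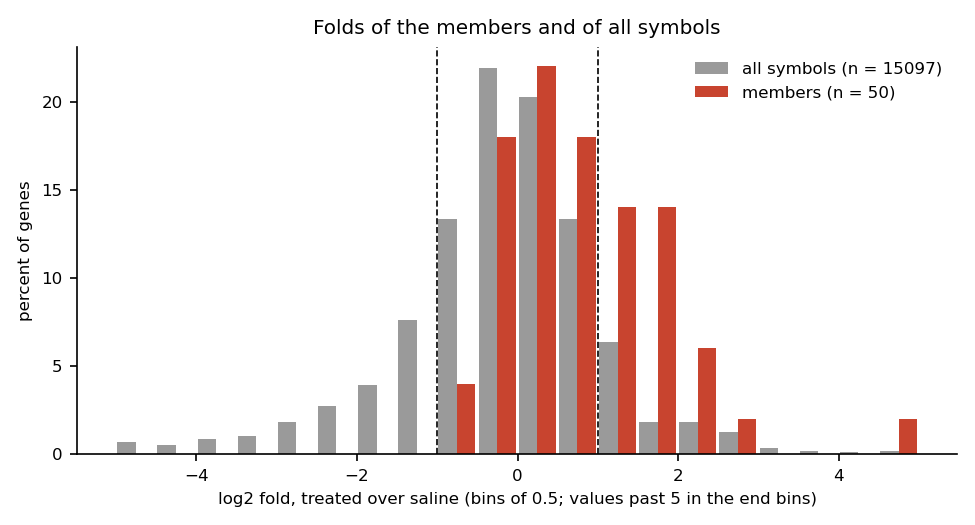
Percent of genes (y axis) in bins of 0.5 of the log2 fold, treated over saline (x axis), for the 15097 symbols that passed the filter (grey) and the 50 chromosome segregation genes (red). Dashed lines mark 2-fold; no red bar lies left of the lower line, and 19 genes lie right of the upper one.

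The spread within the set was wide. The genes past the 2-fold rule were Casc5, Cenpu, Smc4, Cenpe, Mki67, Smc2, Cenpc, Smc6, Cenpf, Ska2, Ncapg, Smc3, Cenph, Top2a, Bub1, Smc5, Ttk, Ndc80 and Cenpi. The nearest gene inside the rule was Cenpi at 1.24 and the nearest outside were Cenpl at 0.94 and Smc1a at 0.93. At the other end, the 5 genes whose intervals lay below 0 were Cenpb, Ncapd2, Plk1, Bub1b and Ncaph2, with log2 folds between -0.65 and -0.24.

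**Figure D2:**
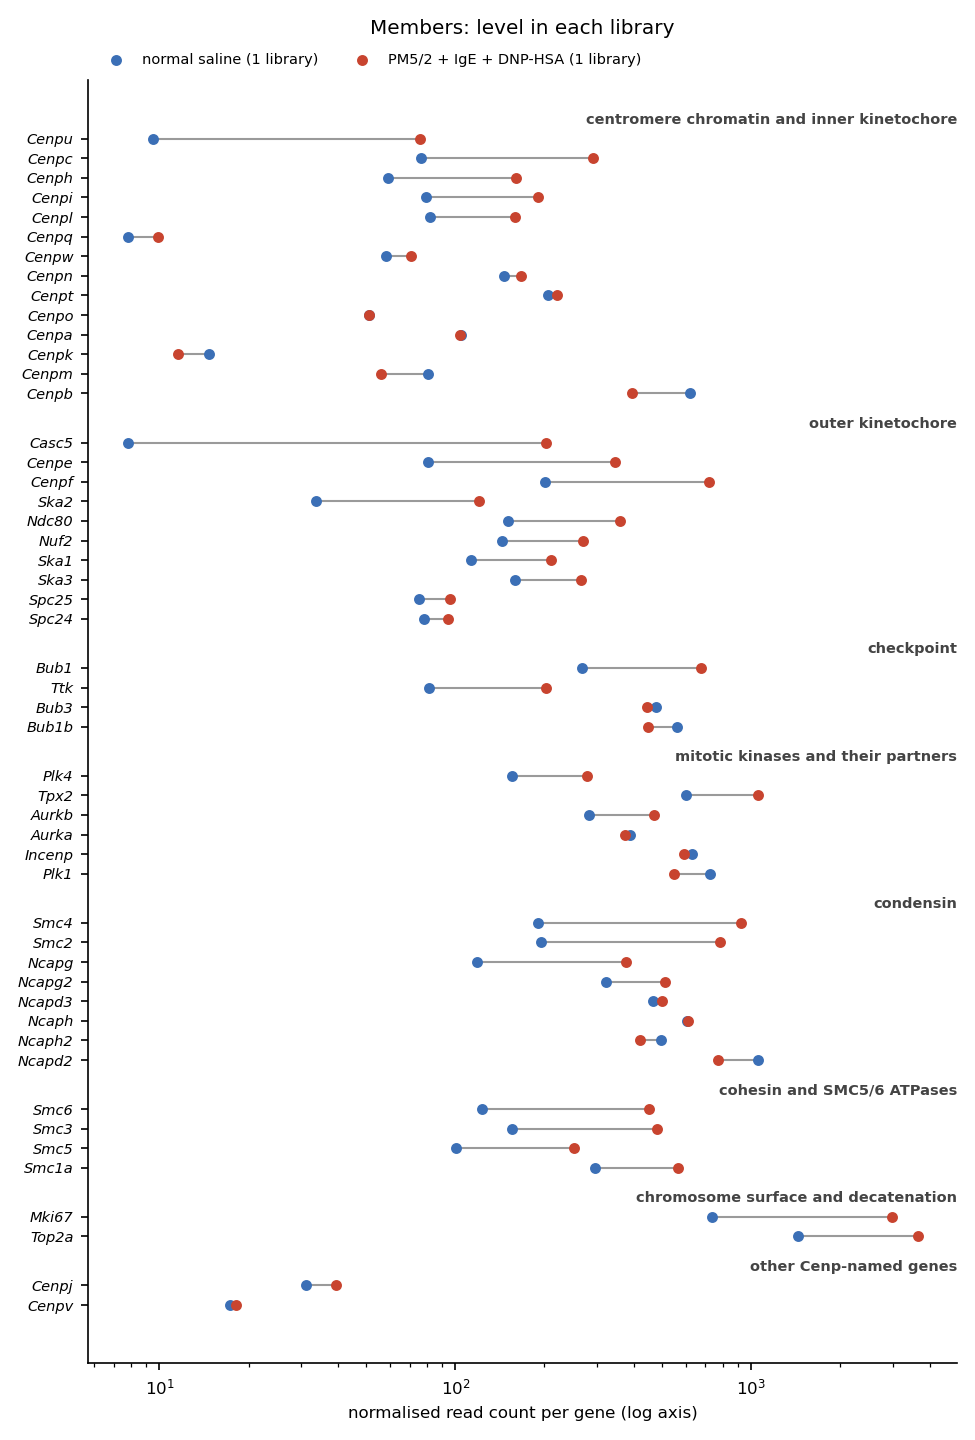
Normalised read count (x axis, log scale) of each of the 50 genes in the saline library (blue) and the treated library (red), 1 library each, grouped by role. The particles named in the legend are PM2.5. The longest lines belong to Casc5 and Cenpu, which had 9 and 11 reads in the saline library.

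At the centromere itself, Cenpa, Cenpb and Cenpc gave unlike values. CENP-A, the histone H3 variant that marks the centromere and is encoded by Cenpa (ENSRNOG00000032178), stood at a normalised count of 104.1 in both libraries, from 120 and 63 reads. Its log2 fold was -0.00035 with an interval of -0.46 to 0.45. Cenpb, whose product binds a short DNA box in centromeric repeats, was at 620 in the saline and 395 in the treated library, a log2 fold of -0.65 (interval -0.87 to -0.44). Cenpc, which encodes the protein that links CENP-A nucleosomes to the rest of the kinetochore, went the other way, from 76.3 to 291, a log2 fold of 1.92 (interval 1.55 to 2.32), on 88 reads in the saline and 176 in the treated library. The interval of Cenpc lay above those of both others, while those of Cenpa and Cenpb overlapped.

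The other inner kinetochore genes encode the constitutive centromere-associated network, a set of small subcomplexes that sits on that chromatin throughout the cell cycle. In the whole inner layer of 14 genes, 4 were 2-fold or more higher, none was lower, and the median log2 fold was 0.24. Counts by role, here and below, come from few genes and are read against all symbols, of which 12.1% were higher and 19.1% lower. At mean normalised counts between 100 and 400, only 6.66% of all symbols were lower. Cenph was at 59.0 in the saline and 160 in the treated library (log2 fold 1.43, interval 0.98 to 1.91), on 68 and 97 reads. Cenpi was at 79.8 and 189.9 (1.24, interval 0.84 to 1.66), on 92 and 115 reads. Cenpu had the second highest fold of all 50 genes, from 9.54 to 76.0, but on 11 against 46 reads (2.87, interval 2.02 to 4.09). The products of Cenph, Cenpi, Cenpk and Cenpm work in 1 subcomplex. Cenpm was at -0.51 (interval -1.13 to 0.058), below the intervals of Cenph and Cenpi. Cenpk was at -0.33 on 17 against 7 reads, with an interval of -1.86 to 0.99 that reached both of theirs. Among the 50 genes, the partners of Cenpu in its own subcomplex were at 0.00080 for Cenpo and 0.31 for Cenpq, the latter on 9 against 6 reads. Cenpl was at 0.94 and its binding partner Cenpn at 0.19. Of the histone-fold pair, Cenpt was at 206 and 221 (0.11, interval -0.21 to 0.42) and Cenpw at 0.28, and both intervals held 0.

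In the outer kinetochore, which touches the microtubules, all 10 genes had a log2 fold above 0, with 5 2-fold or more higher and a median of 1.07. Casc5 (ENSRNOG00000060100), now named Knl1, encodes the scaffold that recruits the checkpoint kinase Bub1 to the kinetochore. It had 9 reads in the saline and 123 in the treated library, normalised counts of 7.81 and 203, a 23.2-fold difference (log2 fold 4.54, interval 3.73 to 5.86). That fold was the highest among the 50 genes, and its size rests on the 9 saline reads of 1 listed transcript. Cenpe, which encodes a kinesin that carries chromosomes to the spindle equator, was at 80.7 and 345 (2.08, interval 1.74 to 2.47), on 93 and 209 reads. Cenpf, which encodes a large coiled-coil protein of the outer layer, was at 200.4 and 722 (1.84, interval 1.62 to 2.09), on 231 and 437 reads.

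The Ndc80 complex, the main microtubule-binding rod of the kinetochore, is made of 4 proteins in equal numbers. Ndc80 was at 151 in the saline and 360.1 in the treated library (log2 fold 1.25, interval 0.96 to 1.55) on 174 and 218 reads, and its dimer partner Nuf2 at 144 and 269 (0.90, interval 0.58 to 1.22). The genes of the opposite, chromatin-facing end differed less, with Spc24 at 78.1 and 94.1 (0.27, interval -0.23 to 0.76) and Spc25 at 75.5 and 95.8 (0.34, interval -0.16 to 0.84). The intervals of Ndc80 therefore lay above those of Spc24 and Spc25, while that of Nuf2 overlapped all of them. The Ska complex, which helps the kinetochore hold a shortening microtubule, gave a like direction. Ska2 was at 33.8 and 120.6 on 39 and 73 reads (1.80, interval 1.25 to 2.43), while Ska1 was at 0.89 and Ska3 at 0.74, and all 3 intervals lay above 0.

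The checkpoint genes split evenly. Bub1 encodes a kinase that marks centromeric chromatin and gathers checkpoint proteins. It was at 269 in the saline and 677 in the treated library (log2 fold 1.33, interval 1.12 to 1.55), on 310 and 410 reads. Ttk, which encodes the kinase Mps1 that starts checkpoint signalling, was at 81.5 and 203 (1.31, interval 0.92 to 1.72), on 94 and 123 reads. Bub1b, the gene of BubR1, a component of the inhibitor that the checkpoint produces, was lower at 560.3 and 449 (-0.32, interval -0.53 to -0.11). Bub3, which binds both Bub1 and BubR1, was at 476 and 443 (-0.11, interval -0.32 to 0.11). Bub1 and Bub1b, paralogues by descent, thus had intervals on opposite sides of 0.

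None of the 6 mitotic kinase genes and their partners passed the 2-fold rule. Plk1, which encodes the Polo-like kinase needed for mitotic entry and spindle assembly, was at 722 in the saline and 548 in the treated library, a log2 fold of -0.40 (interval -0.59 to -0.21). Aurka, the gene of the spindle pole kinase Aurora A, was at 390.3 and 375 (-0.058, interval -0.29 to 0.18). Its activator gene Tpx2 was at 600.2 and 1055 (0.81, interval 0.66 to 0.97). Aurkb, the catalytic subunit of the chromosomal passenger complex, which corrects wrong attachments, was at 284 and 469 (0.72, interval 0.49 to 0.96). Incenp, the scaffold of the same complex, was at 628 and 591 (-0.087, interval -0.27 to 0.098). Plk4, whose kinase controls centriole duplication, was at 155 and 279 (0.84).

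**Figure D3:**
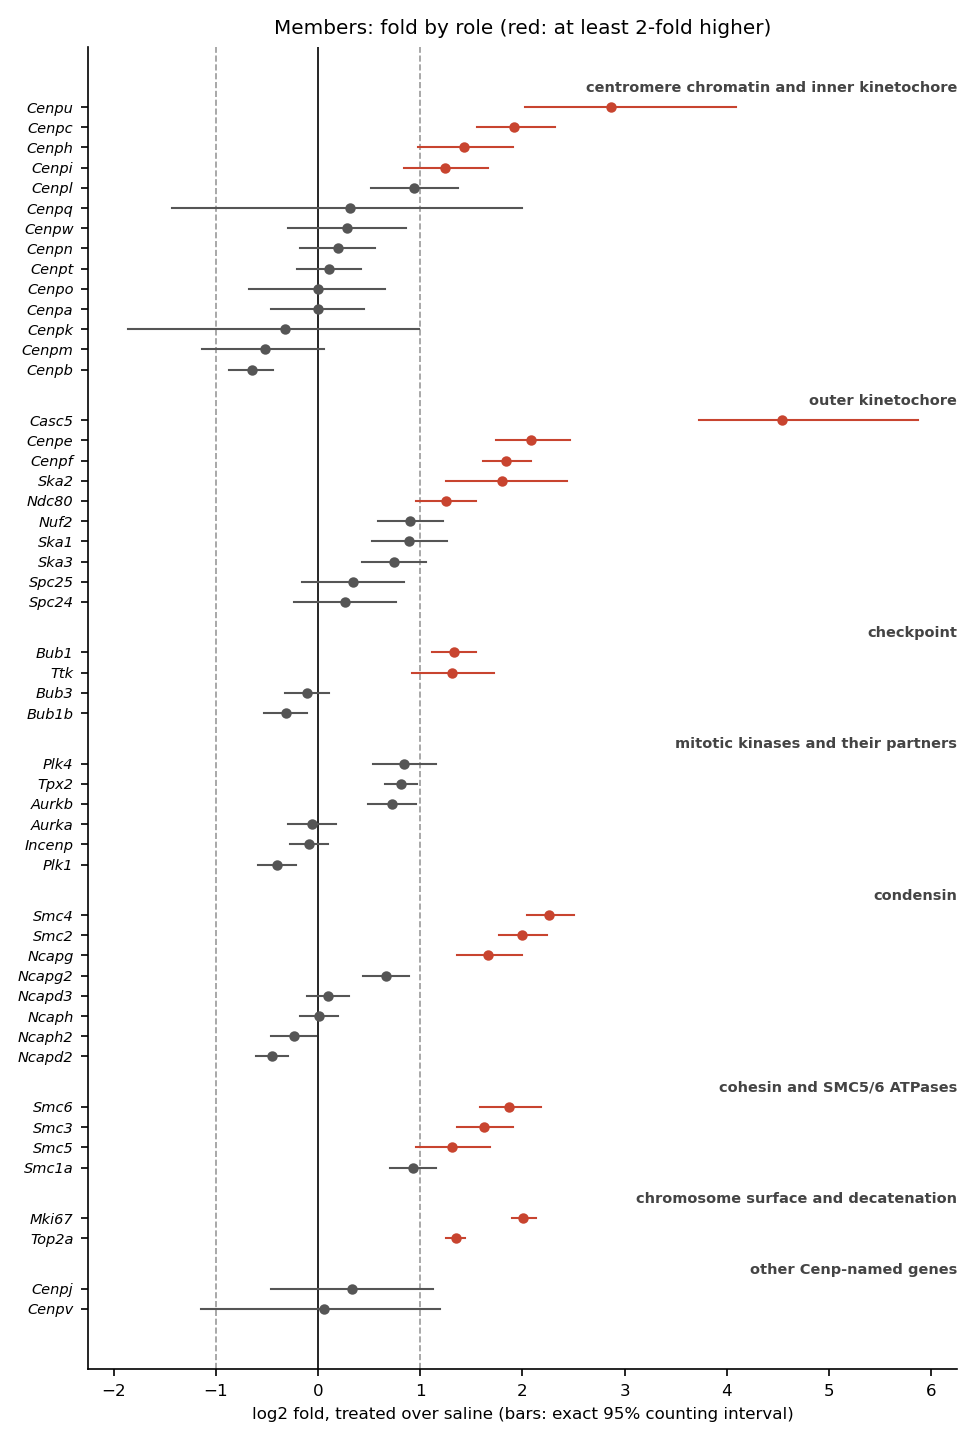
Log2 fold, treated over saline (x axis), of each of the 50 genes by role, with the exact 95% counting interval as a bar; red marks a fold of at least 2 and dashed lines mark 2-fold either way. Condensin shows Smc4, Smc2 and Ncapg at 1.67 to 2.26 while Ncapd3, Ncaph, Ncaph2 and Ncapd2 lie between -0.45 and 0.10.

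Condensin genes divided within a single complex. Condensin is a ring of the ATPases SMC2 and SMC4 closed by 1 of 2 sets of non-SMC subunits, one set for condensin I (Ncapd2, Ncapg, Ncaph) and one for condensin II (Ncapd3, Ncapg2, Ncaph2). Smc4 (ENSRNOG00000010274) was at 191 in the saline and 920 in the treated library, from 220 and 557 reads (log2 fold 2.26, interval 2.04 to 2.501). Smc2 was at 195 and 781 (1.996, interval 1.77 to 2.24), on 225 and 473 reads. Both shared ATPase genes were therefore about as far apart between the libraries, and their intervals overlapped. Of the condensin I genes, Ncapg was higher, at 118 and 377 (1.67, interval 1.36 to 1.99), on 136 and 228 reads. Ncaph was at 605 and 609 (0.012, interval -0.17 to 0.20). Ncapd2 was lower, at 1056 and 773 (-0.45, interval -0.61 to -0.29). In condensin II, too, the G subunit gene was highest, with Ncapg2 at 0.66 (interval 0.44 to 0.89), Ncapd3 at 0.10 and Ncaph2 at -0.24 (interval -0.46 to -0.023). The intervals of Smc2, Smc4 and Ncapg lay above those of the other 5 genes.

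The SMC ATPases outside condensin all had intervals above 0. Smc3 and Smc1a encode the paired ATPases of cohesin. Smc3 was at 155 and 481 (log2 fold 1.62, interval 1.36 to 1.91) on 179 and 291 reads, while Smc1a was at 296 and 563 from 341 reads in each library (0.93, interval 0.71 to 1.15). Smc6 and Smc5 encode the pair that acts in DNA repair and replication stress. Smc6 was at 123 and 453 (1.87, interval 1.58 to 2.18), on 142 and 274 reads. Smc5 was at 101 and 251 (1.31, interval 0.96 to 1.68), on 116 and 152 reads. With Smc2 and Smc4, 5 of the 6 measured Smc genes were 2-fold or more higher.

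The chromosome-coating protein gene Mki67 and the decatenating topoisomerase gene Top2a had the most reads of the genes past the 2-fold rule. Mki67, the gene of the Ki-67 antigen, was at 739 in the saline and 2980 in the treated library, from 852 and 1804 reads. Top2a was at 1434 and 3644, from 1653 and 2206 reads. Their log2 folds were 2.01 (interval 1.89 to 2.13) and 1.34 (interval 1.25 to 1.44). Of the other Cenp-named genes, Cenpj, a centriole gene despite its name, was at 31.2 and 39.6 (log2 fold 0.33, interval -0.46 to 1.13) on 36 against 24 reads. Cenpv was at 17.3 and 18.2 (0.063, interval -1.14 to 1.20) on 20 against 11.

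Promoters were examined for a feature the choice by symbol did not use. Genes transcribed late in the cell cycle often carry a CHR element, bound by the DREAM and MuvB complexes, and CCAAT boxes, bound by NF-Y. RefSeq windows of the GRCr8 assembly, from 250 bases before to 50 after the annotated start, were found for 46 of the 50 genes, Casc5 through its synonym. As CHR letters the run TTTGAA was searched on both strands. So was its variant TTCGAA. At least 1 of them stood in 25 of these 46 windows (54.3%), against 14% of 9848 windows of symbols passing the filter and 19.5% of all 27457 windows. CCAAT, on either strand, stood in 23 of 46 (50%), against 38% and 37.7%. The CHR letters were in 11 of 19 windows (57.9%) of the genes 2-fold or more higher and in 14 of 27 (51.9%) of the others. These shares cover the whole windows, with the 50 bases after the start. Among the higher genes, Cenpf, Ndc80 and Ttk had CHR letters only after the start. So did Cenpm, Cenpn, Cenpo, Cenpw, Nuf2, Plk1, Plk4 and Ska1 among the others. The shares therefore do not describe the upstream bases alone. The 4 upstream stretches below run 5′ to 3′ on the gene's strand and end just before the start site. Of these, 3 belong to genes 2-fold or more higher in the treated library. The last belongs to Ncapd2, lower by its interval but not by the 2-fold rule. Capitals mark the CHR letters and the CCAAT boxes, each in its own or its reverse complement spelling. In these 4 stretches no CHR match overlaps a CCAAT match, and a match shows letters in this window, not a bound site.
Top2a, chr10:84473094-84473343, minus strand: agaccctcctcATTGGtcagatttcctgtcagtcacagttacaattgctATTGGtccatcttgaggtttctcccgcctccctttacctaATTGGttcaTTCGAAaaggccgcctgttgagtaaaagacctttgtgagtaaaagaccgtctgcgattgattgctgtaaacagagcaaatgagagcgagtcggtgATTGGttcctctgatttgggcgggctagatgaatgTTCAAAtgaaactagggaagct
Smc4, chr2:155550012-155550261, plus strand: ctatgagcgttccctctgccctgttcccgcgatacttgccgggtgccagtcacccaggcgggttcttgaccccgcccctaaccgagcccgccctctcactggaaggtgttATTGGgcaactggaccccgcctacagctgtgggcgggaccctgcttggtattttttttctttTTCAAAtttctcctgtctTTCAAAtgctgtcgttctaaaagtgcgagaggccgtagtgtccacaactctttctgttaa
Ncapg, chr14:69645446-69645695, minus strand: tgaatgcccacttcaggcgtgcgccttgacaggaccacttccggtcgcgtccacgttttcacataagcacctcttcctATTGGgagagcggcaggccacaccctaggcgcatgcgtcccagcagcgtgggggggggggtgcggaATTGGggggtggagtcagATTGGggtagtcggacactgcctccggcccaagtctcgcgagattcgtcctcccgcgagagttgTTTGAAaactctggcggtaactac
Ncapd2, chr4:159677939-159678188, minus strand: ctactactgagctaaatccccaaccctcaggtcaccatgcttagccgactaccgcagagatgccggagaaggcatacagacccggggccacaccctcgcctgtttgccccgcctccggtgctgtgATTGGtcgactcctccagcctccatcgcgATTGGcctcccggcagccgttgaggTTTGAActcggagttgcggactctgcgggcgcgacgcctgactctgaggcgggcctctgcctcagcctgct
Top2a holds 4 CCAAT boxes and 2 CHR matches, the nearest CHR match beginning 22 bases before the start. Ncapg holds 3 and 1, Smc4 holds 1 and 2, and Ncapd2 holds 2 and 1. The stretches of these genes with log2 folds of 1.34 to 2.26 and that of Ncapd2, at -0.45, carry both kinds of match. They are examples and do not stand for the higher genes as a whole. Upstream of Bub1, Cenph, Cenpu, Ndc80, Smc3, Smc5 and Smc6, all 2-fold or more higher, neither kind was found.

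The other genes of chromosome segregation were followed through 8 companion lists with 64 measured of 72 listed genes. Of the 64, 12 were 2-fold or more higher after treatment and 2 lower by as much, with a median log2 fold of 0.16. These are 18.8% and 3.12% of the companion genes, against 12.1% and 19.1% of all symbols. The lists below are short, and their counts are read against those same shares. Of 11 cohesin subunit and regulator genes, 3 were higher, with a median of 0.86. These were Esco2, an acetyltransferase gene for sister cohesion, at 19.9 and 94.1 (2.18, interval 1.52 to 3.005), Stag2, a core subunit gene, at 343 and 879 (1.35, interval 1.16 to 1.55), and the loader gene Nipbl, at 349.5 and 880.3 (1.33, interval 1.14 to 1.52). The kleisin gene Rad21, which closes the cohesin ring, was at 1102 and 1482 (0.43, interval 0.30 to 0.55), and the loader partner Mau2 was at -0.57. The shugoshins, which guard centromeric cohesion, were the 2 of 5 higher genes in their list: Sgo2 was at 17.3 and 127 (2.80, interval 2.15 to 3.66) and Sgo1 at 43.4 and 116 (1.39, interval 0.87 to 1.97). Cdca8, the borealin gene of the passenger complex and the best covered of the list, was at 576 and 550.0 (-0.066, interval -0.26 to 0.13). Birc5, the survivin gene, was at a log2 fold of 0.43.

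In the list of CENP-A deposition and further centromere genes, 3 of 5 were higher, all on few reads. The licensing gene Mis18a was at 19.1 and 62.8 on 22 and 38 reads (1.67, interval 0.92 to 2.55). Oip5, also a licensing gene, was at 18.2 and 46.2 on 21 and 28 reads (1.30, interval 0.48 to 2.23). Stra13 was at 6.07 and 16.5 on 7 and 10 reads, with an interval that held 0 (1.31, interval -0.097 to 3.07). Hjurp, the chaperone gene that loads CENP-A, was lower at 324 and 208 (-0.63, interval -0.94 to -0.34). Of 9 kinetochore partners, Zwilch of the dynein-recruiting RZZ complex was the 1 gene 2-fold or more higher, at 139 and 311 (1.16, interval 0.85 to 1.48), and the list median was 0.37. Zwint, the best covered of them, was at 924 and 867 (-0.091, interval -0.24 to 0.061).

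The checkpoint output and the mitotic engine were not generally higher. Of 5 MAD and Cdc20 list genes, none was higher and 1 was lower, Mad2l1bp, which encodes the p31comet protein that silences the checkpoint, at 109 and 28.1 (-1.92, interval -2.78 to -1.22). Cdc20, the activator that the checkpoint holds back, was at 368 and 332 (-0.15, interval -0.40 to 0.098), and Mad2l1 at 0.95. Among 15 anaphase-promoting complex and separase list genes, 2 were higher, none was lower and the median was -0.24. The complex's subunit gene Cdc27 was at 342 and 818 (1.26, interval 1.06 to 1.45), and Anapc13 at 15.6 and 42.9 (1.40, interval 0.54 to 2.41). Anapc5 had the most reads of that list and was at 3782 and 3531 (-0.099, interval -0.17 to -0.024). Of 11 mitotic cyclin, kinase and phosphatase list genes, 1 was higher and 1 lower, with a median of -0.29. Mastl, the Greatwall kinase gene, was at 62.4 and 173 (1.46, interval 1.03 to 1.93). Pkmyt1, an inhibitory kinase gene for Cdk1, was at 260.2 and 116 (-1.16, interval -1.57 to -0.79). Ccnb1, the cyclin B1 gene and the best covered of the list, was at 511 and 669 (0.39, interval 0.20 to 0.57). The other cyclin gene of the list, Ccna2, was at a log2 fold of 0.84 (interval 0.63 to 1.06). Cdk1 was at 0.37 and Foxm1, a transcription factor gene of the same phase, at -0.64. The non-SMC subunits of SMC5/6, 3 of 5 measured, lay at log2 folds between -0.14 and 0.21, below the lower bounds of Smc5 and Smc6. The best covered, Nsmce4a, was at 252 and 292 (0.21, interval -0.066 to 0.49).

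**Figure D4:**
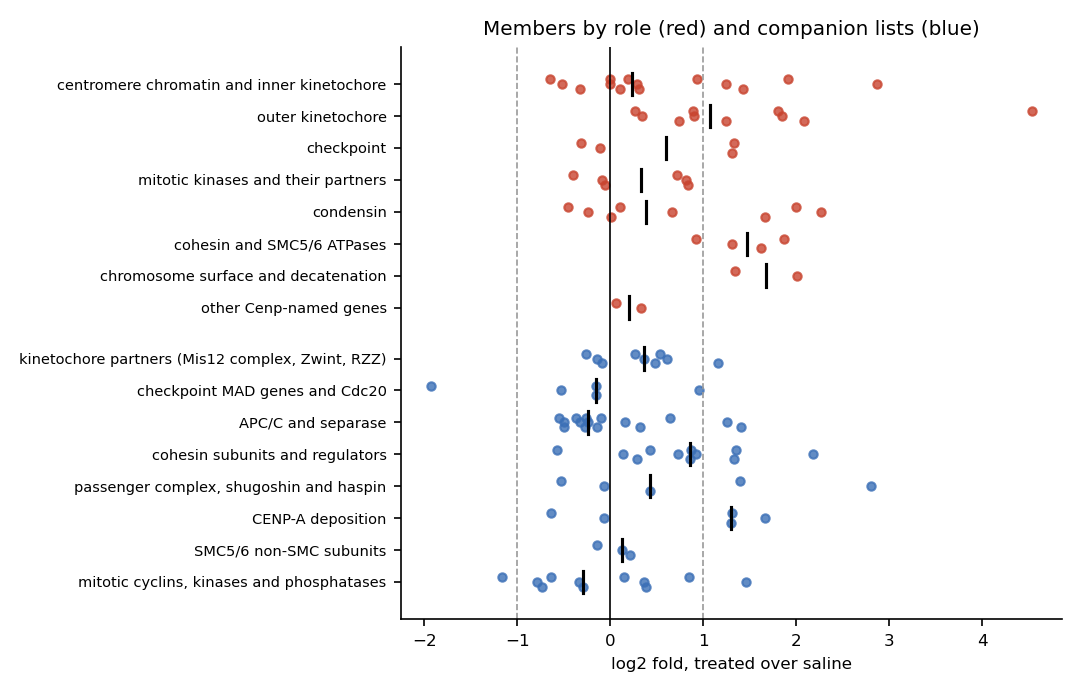
Log2 fold, treated over saline (x axis), of each gene in the 8 roles (red) and in the 8 companion lists (blue); black bars are medians and dashed lines mark 2-fold. The SMC ATPases of cohesin and SMC5/6 have a median of 1.47, against 0.13 for the non-SMC subunits of SMC5/6. The list of mitotic cyclins, kinases and phosphatases has a median of -0.29, with its cyclins Ccna2 and Ccnb1 above 0.

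For 12 of the 50 genes the table lists 2 or more transcripts. By their intervals, Ncaph2 was the 1 gene with transcripts on opposite sides of 0. Its main transcript was at 487 and 395 (log2 fold -0.30, interval -0.53 to -0.083), and the minor one at 9.54 and 26.4 on 11 against 16 reads (1.38, interval 0.27 to 2.72). Smc5 passed the 2-fold rule through its minor transcript. That transcript was at 10.4 and 76.0 on 12 against 46 reads (2.75, interval 1.93 to 3.92), while the major one was at 90.2 and 175 (0.95, interval 0.55 to 1.36). Cenpl showed the opposite, with its major transcript at 1.18 (interval 0.73 to 1.65) and another at -1.40 on 17 against 3 reads (interval -3.99 to 0.22).

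The genes past the 2-fold rule had longer spans and higher neighbours than the other 31. Gene span, from RefSeq, had a median of 40 kb among the 19 genes and 18.4 kb among the other 31. Of the 19 genes under 20 kb, 2 were 2-fold or more higher, against 8 of 12 between 20 and 40 kb and 9 of 19 above 40 kb. Over all symbols the same classes gave 9.23%, 10.4% and 11.7%. Spearman's rho between fold and span was 0.34 over the 50 genes and 0.068 over 12020 symbols. The median log2 fold of the 10 nearest measured genes was 0.14 around the 19 genes and -0.25 around the other 31, with rho between fold and neighbourhood of 0.44 over the 50 and 0.27 over 12014 symbols. These correlations describe genes that share the same 2 libraries. Neighbour medians below 0 surrounded 6 of the 19 genes (Casc5, Cenpf, Bub1, Smc2, Ttk and Top2a) and 22 of the other 31. Casc5 had the lowest among the 19, at -0.61. The part of span and of neighbourhood in the folds was not tested further than the alternatives given in the closing section.

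**Figure D5:**
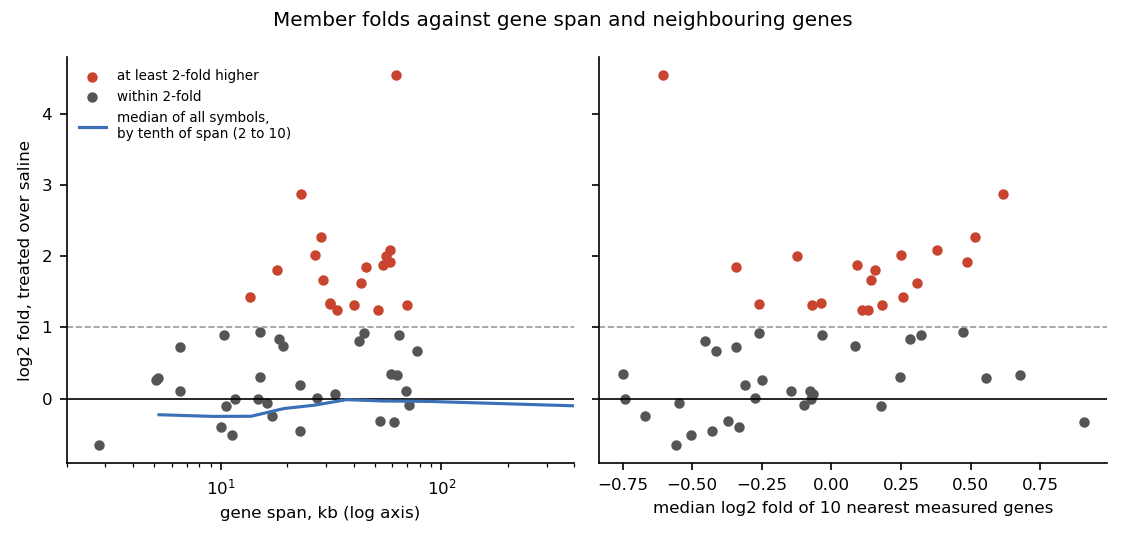
Log2 fold, treated over saline (y axis), of the 50 genes against gene span in kb (left, log axis) and against the median log2 fold of the 10 nearest measured genes (right); red marks a fold of at least 2. The blue line, the median of all symbols in 10 equal classes of span of which the lowest is not drawn, stays between -0.25 and -0.015 while most red points lie above 20 kb.

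The comparison with all symbols was repeated within classes of the mean level in the 2 libraries. Of the 21 genes with a mean normalised count between 100 and 400, 11 were 2-fold or more higher (52.4%), against 7.51% of all 4221 symbols in that class. None of the 21 was lower, against 6.66%. Above 400, the count was 6 of 18 (33.3%), against 4.82% of 3155 symbols, and 0 were lower, against 4.79%. Below 100, it was 2 of 11 (18.2%), against 17.6% of 7721 symbols, so there the share was near the background. In that class 0 of the 11 were lower, against 31.7%. At the levels where 39 of the 50 genes lie, few symbols were lower, so the count of 0 differed less from the background there than over all symbols.

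The authors' deposited table gives a p-value per transcript for the same 2 libraries. Of the 64 transcripts of these genes, 2 had a p-value under 0.05 in the authors' deposited table, against 0.319% of all 20367 transcripts, and both are among the 57 that the authors selected. They were the transcripts of Mki67 (p = 0.0393) and Smc4 (p = 0.0436), each with an adjusted p-value of 0.92 in the authors' deposited table. The next were Smc2 (p = 0.0555) and Casc5 (p = 0.0614) in the authors' deposited table. The lowest adjusted p-value of any transcript in the authors' deposited table was also 0.92.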

How the data were processed

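The authors' deposited table holds log2 values. As 2 to that power minus 1, 100% were whole multiples of 1 step per library (within 1e-06 reads), giving read counts and size factors of 1.15 (saline) and 0.605 (treated). Strand-specific libraries were made, per the labels' protocols. FastQC, STAR 2.5, Cuffnorm and DESeq 1.22.1 appear in the submitters' processing notes without a role; genome build, annotation and counting settings were not given in the sources used here. P-values of the authors' deposited table were used as listed. A further 4 per-sample columns were not used.

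Transcripts were summed by symbol (1276 have none), folds take a pseudocount of 1, and a symbol needed a normalised count of 1 or more in either library. The exact (Clopper-Pearson, 95%) bounds of a gene's treated read share were converted to a ratio without pseudocount; reads are not independent molecules, so counting error alone is covered. Genes and lists were chosen with earlier results of these data known. Levels, folds and intervals are given for genes past the 2-fold rule and the best covered of each role or list; other companion genes were named after their values were seen, and 1 listed gene is not reported here or counted. RefSeq matched 49 symbols directly and 1 by synonym. Poisson counts were simulated for this comparison of treated against saline, with 15409 symbols of which 200 changed by a log2 fold of 2. All 200 had a mean of at least 50, and 100% of raised and 100% of lowered ones passed the rule. Among symbols with a mean of at least 50, 95.9% of intervals held the true ratio. The planted change is larger than the rule, so this checks the calculation only. Genes of lower level and the spread between cultures are not covered. Alternatives were other pseudocounts, filters and scalings, the highest isoform, lncRNA rows left out, and 2 added baselines. Software was Python 3.11.15 with Matplotlib 3.10.9, SciPy 1.17.1, pandas 2.3.3 and NumPy 2.4.6.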

Additional observations from a re-analysis of the deposited data

How the results depend on the processing

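Under 9 alternatives (pseudocounts of 5 and 0.1, no filter, a filter of 10, 3 rescalings, the highest isoform alone, lncRNA rows left out), between 19 and 20 of the 50 genes were at least 2-fold higher, none was lower, and the median log2 fold ranged from 0.72 to 0.85. Dropping the filter or the lncRNA rows could not change any value, as all 50 genes passed the filter with protein coding transcripts only. A rescaling moves all genes nearly alike, and these were small, such as -0.053 with the library totals made equal. They could therefore change few calls. In all 9 settings 18 genes were at least 2-fold higher. Of the others, Smc5 was at 0.95 with its highest isoform alone and Cenpl passed 1 with the median of all symbols set to 0 or its highest isoform alone. Of 449 gene values under the 9 alternatives, 1 moved beyond its counting interval, that of Smc5. No gene past the 2-fold rule changed sign, but those genes lie too far from 0 for such small shifts to reverse them. Some genes near 0 did change sign. Aurka, at -0.058 in the main setting, was at 0.013 with the median of all symbols set to 0. Incenp, at -0.087, was at 0.086 with its highest isoform alone. In 2 baselines chosen after seeing the data, subtracting the median of symbols of like gene span gave 21 higher and 0 lower. Subtracting the median of the 10 nearest genes gave 24 higher and 1 lower, Cenpk at -1.23. No paired analysis was possible because each group has 1 library, and no library could be left out. The depth limits the genes with few reads: Cenpq, with 15 reads in all, had an interval of -1.43 to 1.998.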
